A study of Mus musculus with 33 samples.

Results

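Lamina-associated domains (LADs) that appear in the list of mES cells (mouse embryonic stem cells) and in that of neither embryonic tissue of the series are described here. They are the 10 kb bins of chromosomes 1 to 19 that lay in the LAD list of mES cells, in the KOD or open list of heart and in the KOD or open list of forebrain, with adjacent bins joined into regions. The rule selected 3272 bins (32.7 Mb) in 495 regions, out of 240077 bins in all, so the members were chosen by the listed states of the bins in the 3 sources, and those states are given as a description with no test. They made up 3.13% ± 0.929 (jackknife SE, n = 19 chromosomes) of the 104580 LAD bins of mES cells and 1.36% ± 0.390 of all bins.

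CUT&RUN, which cuts DNA next to an antibody in permeable, unfixed cells, was used against H3K9me2, against Lamin B1 and with IgG as the control, in 33 libraries of C57BL/6 genotype. The mES cells were a purchased line, started on inactivated feeder fibroblasts and then grown in LIF with PD0325901 and CHIR99021 (2i). The tissues were whole hearts and right forebrain lobes of E11.5 embryos, dissociated with papain. Each source had 3 biological replicates, which were pooled litters or culture vessels, and 3 libraries each for H3K9me2 and Lamin B1, with 3 IgG libraries for mES cells and 6 for each tissue. The deposited lists name each stretch LAD, KOD or open, pool the replicates of a source and hold no score, so no value below has a replicate error, the read depth of a domain is unknown, and mixtures of cell types in a tissue cannot be told apart. KOD is the depositors' label and is not spelled out in the sources used here. The cell types could not be checked against marker expression, since the assay measures chromatin.

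Lamin B1 is a filament protein of the nuclear lamina, the mesh under the inner nuclear membrane, and LADs are long domains of chromatin in contact with it. Most LADs are poor in genes and carry repressive marks, among them dimethylation of lysine 9 of histone H3 (H3K9me2), and their position differs in part between cell types. Pluripotent cells grown in LIF with 2i are held close to the state of the early epiblast, before heart and brain cells arise. Since RNA was not measured, whether a gene was transcribed is not known from these states.

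The members contained sequence of different kinds, and promoters and miRNAs that show the contrast are given first. Promoter sequences are the 250 bases before the start of a gene, read along the strand of the gene. They are from RefSeq on GRCm38.p6, the assembly mm10 is made from. Vmn1r genes in members had a median length of 0.924 kb, so their listed start may be that of the coding sequence. Whether it is the start of transcription was not tested. The first pair comes from an array of vomeronasal receptor genes that was LAD in mES cells and open in both tissues, at chr7:20205608-20205857 and chr7:21844268-21844517, both on the minus strand, and the capital marks the base at which they differ:

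Vmn1r241: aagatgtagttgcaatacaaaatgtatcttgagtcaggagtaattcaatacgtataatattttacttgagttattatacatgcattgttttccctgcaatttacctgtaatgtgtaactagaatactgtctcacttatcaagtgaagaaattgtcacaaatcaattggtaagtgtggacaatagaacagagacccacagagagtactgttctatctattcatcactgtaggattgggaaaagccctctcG

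Vmn1r249: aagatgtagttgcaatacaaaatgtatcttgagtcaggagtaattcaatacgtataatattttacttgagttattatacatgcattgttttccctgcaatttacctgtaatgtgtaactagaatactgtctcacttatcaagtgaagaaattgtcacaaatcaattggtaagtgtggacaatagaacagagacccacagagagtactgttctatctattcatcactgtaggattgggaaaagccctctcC

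Those 250 bases differed at 1 position, and the genes lie in separate member regions. The pair was chosen among Vmn1r promoters in members open in both tissues, as a pair with the fewest differing bases above 0. The small difference therefore follows from the choice. Among the other Vmn1r promoters, 11 differed from Vmn1r241 at no more than 25 of the 250 bases without gaps, from 0 for Vmn1r117 and Vmn1r251 to 13 for Vmn1r101 and Vmn1r149, and 10 of the 11 started in a member. The next promoters belong to single genes, with the capitals marking CG dinucleotides. Pard3b, a polarity protein gene, was KOD in both tissues at its start (chr1:61638574-61638823, plus strand). Mmd, named for its rise as monocytes become macrophages, was open in both (chr11:90249226-90249475, plus strand), and Nrp1, a receptor for semaphorins and VEGF, was open in heart and KOD in forebrain at its start (chr8:128358823-128359072, plus strand):

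Pard3b: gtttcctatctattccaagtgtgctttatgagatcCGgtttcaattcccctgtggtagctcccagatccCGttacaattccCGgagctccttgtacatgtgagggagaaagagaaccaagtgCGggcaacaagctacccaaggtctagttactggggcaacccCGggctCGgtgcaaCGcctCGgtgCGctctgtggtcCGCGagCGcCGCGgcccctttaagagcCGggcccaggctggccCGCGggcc

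Mmd: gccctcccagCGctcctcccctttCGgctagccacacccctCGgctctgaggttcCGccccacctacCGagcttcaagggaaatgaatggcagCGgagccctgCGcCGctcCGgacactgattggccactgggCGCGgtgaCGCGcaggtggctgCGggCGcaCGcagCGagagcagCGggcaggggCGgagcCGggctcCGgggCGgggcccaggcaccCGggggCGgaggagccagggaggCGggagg

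Nrp1: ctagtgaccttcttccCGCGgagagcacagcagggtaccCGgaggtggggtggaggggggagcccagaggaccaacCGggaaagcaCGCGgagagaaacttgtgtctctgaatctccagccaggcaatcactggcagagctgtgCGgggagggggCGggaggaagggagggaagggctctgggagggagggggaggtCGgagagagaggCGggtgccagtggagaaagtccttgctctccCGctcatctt

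Over the full 300 bases of the promoter window, which adds 50 after the start, the CG count was 2 for Vmn1r241, 26 for Pard3b, 32 for Mmd and 14 for Nrp1. Of all 31396 promoters on these chromosomes, 17.4% held at least as many as Pard3b, 9.83% at least as many as Mmd and 36.8% at least as many as Nrp1. The members also held 9 of 1136 miRNA genes (0.792%), with 15 mature miRNAs and 14 seeds among them. The 5 below come from loci described further on, with the seed, bases 2 to 8, in capitals:

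mmu-miR-181a-5p: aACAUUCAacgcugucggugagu

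mmu-miR-181b-5p: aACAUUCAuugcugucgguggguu

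mmu-miR-99a-5p: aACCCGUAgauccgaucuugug

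mmu-let-7c-5p: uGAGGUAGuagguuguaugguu

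mmu-miR-125b-5p: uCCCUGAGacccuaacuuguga

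Only miR-181a-5p and miR-181b-5p shared a seed among the 15, and their genes lie side by side.

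The state that the members had in the tissues was examined next. KOD in both tissues was found for 1647 bins (50.3% ± 14.4) and open in both for 1386 bins (42.4% ± 15.6). A further 160 bins (4.89% ± 1.14) were open in heart and KOD in forebrain, and 79 (2.41% ± 1.12) were KOD in heart and open in forebrain. The first shares have large errors and moved with single chromosomes. Without chromosome 7, 28.2% of the members were open in both tissues and 63.4% KOD in both, whereas without chromosome 11 the shares were 46.7% and 46.0%, so neither of these states was the commonest in every case. Both tissues gave a member bin the same state in 92.7% ± 1.70 of cases. Among the 96127 bins that were KOD or open in all 3 sources, that share was 83.0% ± 0.755, with 78.4% ± 1.71 for bins KOD in mES cells and 85.4% ± 1.05 for bins open there. These shares describe states that the rule used in part, and nothing is concluded from them.

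**Figure D1:**
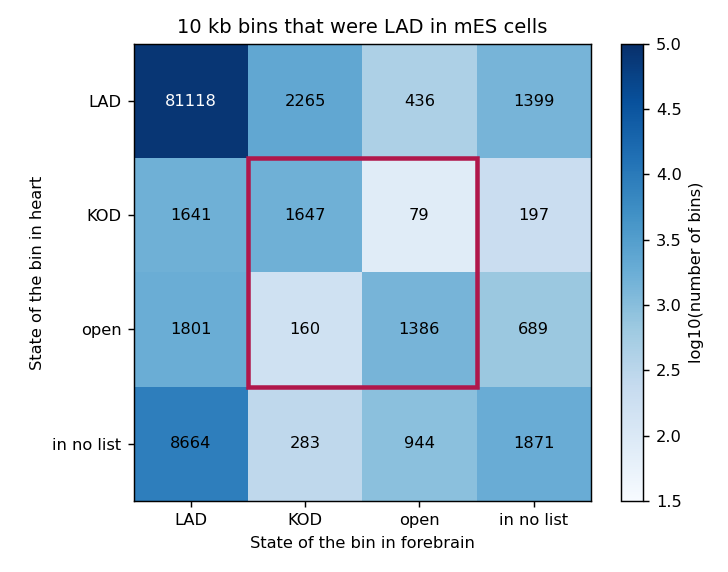
Number of 10 kb bins that were LAD in mES cells, by their state in heart (rows) and in forebrain (columns), with the colour on a log10 scale. The outlined 4 cells are the members, and 1647 and 1386 of the 3272 had the same state in both tissues.

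Bins that were LAD in mES cells and in 1 of the tissues had other proportions. The 3442 bins that were also LAD in forebrain were open in heart in 52.3% ± 6.46 of cases, whereas the 2701 that were also LAD in heart were open in forebrain in 16.1% ± 4.75. Of the 90533 LAD bins of mES cells that were listed in both tissues, 7.42% ± 1.15 were KOD or open in heart and 6.60% ± 1.72 in forebrain, and 3.61% ± 1.09 were so in both, which are the members. Of the bins not LAD in heart, 48.7% ± 9.02 were also not LAD in forebrain, and 41.0% without chromosome 7. In the other direction the share was 54.8% ± 3.61. Just outside the rule were 2113 bins that were not LAD in 1 tissue and in no list of the other, of which 1227 lacked a state in heart and 886 in forebrain, and 1871 bins with no state in either tissue. These bins outnumber the members.

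The members were short. The median region was 30 kb long with quartiles of 10 and 70 kb, and 132 of the 495 were a single bin. The 35 regions of at least 200 kb nevertheless held 41.0% of the member bins, and the 12 longest held 22.6%. A single combination of tissue states ran through the whole length of 467 regions. The other 28 regions had more than 1 combination, and they had a median length of 80 kb.

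The longest region of all was chr7:20350001-21600000, 1250 kb long and open in both tissues over its whole length, with 34 protein-coding genes that are all Vmn1r genes or predicted genes with Gm symbols. Vmn1r genes encode the V1R class of pheromone receptors of the vomeronasal organ. The sixth and the seventh longest regions, chr7:21730001-22310000 and chr7:22320001-22890000, and the eleventh, chr7:22940001-23320000, continue this array and were open in both tissues as well, with 15, 17 and 8 member genes. The eighth longest, chr7:8640001-9140000, had the same states and held Vmn2r38, Vmn2r39 and Vmn2r40, of the V2R class of vomeronasal receptors. The tenth, chr5:94860001-95320000, was also open throughout and held Pramel45 and Pramel46, of a family related to the tumour antigen PRAME, and 3 predicted genes. The 6 regions of the 12 longest that were open in both tissues were all such arrays.

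The other 6 of the 12 longest were KOD over all or most of their length and held few genes. The second longest of the members, chr18:55350001-56320000, was 970 kb with no protein-coding gene, and the ninth, chr18:54000001-54460000, had none either but contained the long noncoding RNA gene Redrum. The third, chr7:115020001-115700000, was open over 14.7% of its bins in heart and nowhere in forebrain, and overlapped part of Sox6 and no other protein-coding gene. The fourth, chr11:65860001-66470000, held most of Dnah9, an axonemal dynein heavy chain gene, and of Shisa6, whose protein binds AMPA-type glutamate receptors. The fifth, chr1:61580001-62160000, lay within Pard3b and its flank, and the twelfth, chr18:78690001-79060000, held Setbp1, a gene of a SET-binding protein, and was open over 24.3% of its bins in heart. Of all 495 regions, 236 touched no protein-coding gene.

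Members were found on all 19 chromosomes, but very unevenly. Chromosome 7 held 921 of the 3272 bins (28.1%), and 14.9% of its own LAD bins of mES cells were members. The share was 11.1% on chromosome 19, 9.96% on chromosome 11 and 8.40% on chromosome 18, against a median of 1.15% and a lowest value of 0.229% on chromosome 3. On chromosome 7, 78.6% of the member bins were open in both tissues. Chromosomes 14 and 5 were also more open than KOD, with 72.3% and 54.2% of their member bins open in both tissues. KOD in both tissues made up 94.3% of the members on chromosome 19, 87.1% on chromosome 11, 81.6% on chromosome 18 and 70.8% on chromosome 1, and no bin on chromosome 19 was open in both. Counted by chromosome, 10 had more open and 9 more KOD members.

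**Figure D2:**
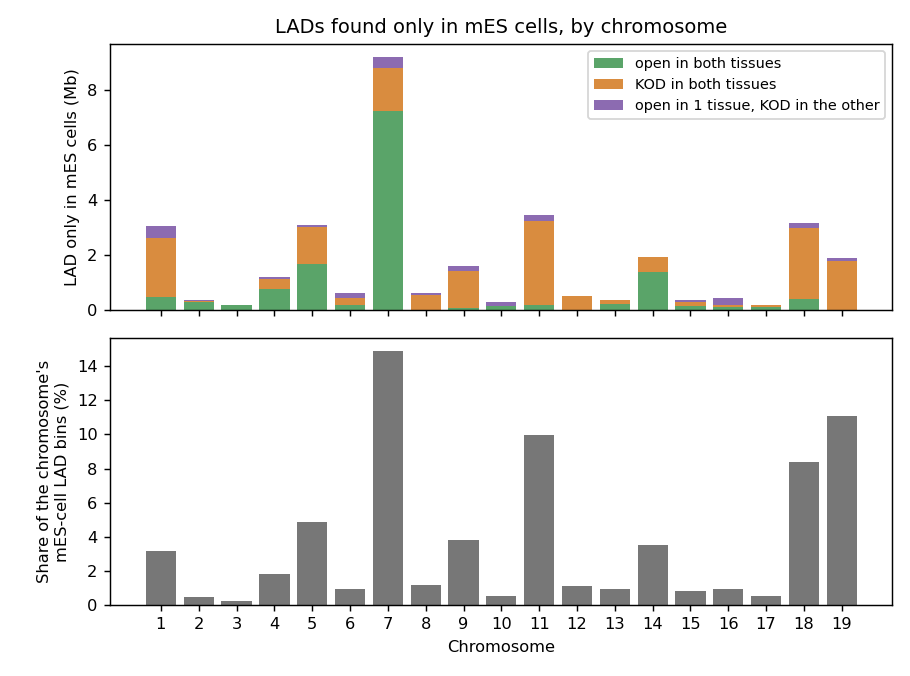
Upper panel, megabases of members on each chromosome, stacked by state in the tissues. Lower panel, the members as a percentage of the LAD bins of mES cells on the same chromosome, which was 14.9% on chromosome 7 and 0.229% on chromosome 3.

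How the members sit inside the LADs of mES cells was then measured. They lay in 316 of the 1932 LADs, and 140 of these LADs were members over at least 80% of their length, 122 of them entirely. Those 140 held 1652 of the member bins (50.5%) and had a median length of 50 kb, but 24 were at least 200 kb long, the longest of them the Vmn1r region of 1250 kb. In 225 of the 316 LADs no bin was LAD in all 3 sources, and those LADs held 76.0% of the member bins. Long LADs contributed little, since 21.9% of the members and 66.6% of all LAD bins of mES cells lay in LADs of at least 1 Mb.

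A bin within 50 kb of an edge of its LAD was found in 38.8% ± 5.74 of members, against 13.8% ± 0.416 of all LAD bins of mES cells and 9.31% ± 0.383 of bins that were LAD in all 3 sources. Bins that were not LAD in heart alone reached 31.1% ± 2.48 and those not LAD in forebrain alone 27.4% ± 2.48. The members' range of 1 SE overlapped that of the first of these and lay above those of the second and of the bins LAD in all 3 sources. Such ranges measure spread along 1 pooled map and are no test of a difference. Without domains under 100 kb the members' share fell to 28.9%, and the other classes were not recomputed. The LAD around the median member was 510 kb long and around the median LAD bin 1650 kb. Counted by LAD and not by bin, the median length was 160 kb for LADs with members and 160 kb for all LADs of mES cells. In a short LAD every bin is near an edge, so these values are not independent of each other.

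**Figure D3:**
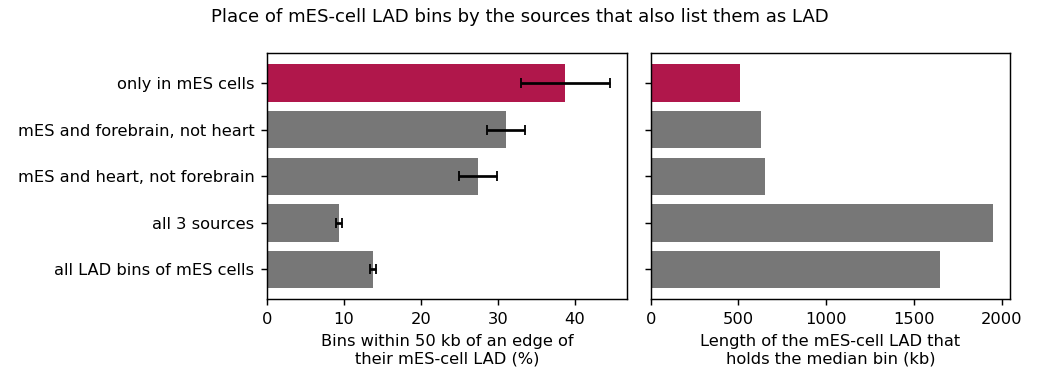
Left panel, percentage of bins within 50 kb of an edge of the mES-cell LAD around them, with jackknife standard errors over 19 chromosomes. Right panel, length of the mES-cell LAD around the median bin of the class, 510 kb for the members and 1950 kb for bins LAD in all 3 sources.

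The state just outside a region differed between the open and the KOD members. Of the 406 sides of regions that were mainly open in both tissues, 34.2% bordered a bin in no list of mES cells and open in both tissues, and 0.739% bordered a bin open in all 3 sources. Of the 474 sides of regions mainly KOD in both, 26.4% bordered a bin that was KOD in all 3 sources. Another LAD bin of mES cells bordered 55.9% of the sides in the first class and 54.0% in the second. The heart KODs that held members had LAD over 47.3% of their bins in mES cells and KOD over 32.0%, and the heart open domains that held members had LAD over 49.0%, open over 23.3% and no list over 21.5%. In the forebrain domains that held members, as in those of heart, LAD was the commonest state in mES cells. It was followed by KOD in the KODs and by open, ahead of no list, in the open domains. Most sides of both classes of region thus bordered a LAD bin of mES cells. Among the other sides, a bin in no list of mES cells was commonest for the open regions and a KOD bin for the KOD regions.

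Gene content also differed between these kinds of member, with gene arrays in the open ones. With genes placed by their midpoint, members open in both tissues held 12.8 ± 3.42 protein-coding genes per Mb, and members KOD in both held 1.88 ± 0.436. Bins LAD in all 3 sources held 2.74 ± 0.450 and all bins 8.56 ± 0.580. At least 50% of the body lay in members for 195 of 20665 protein-coding genes (0.944%), which is 5.78% of the 3376 genes that were LAD over at least 50% of the body in mES cells. A further 111 genes lay in members over a smaller part. Of the 195, 164 were wholly inside, 118 were on chromosome 7, 171 were mainly open in both tissues and 22 mainly KOD in both. The median length was 2.70 kb for the open genes, 38.8 kb for the KOD genes and 17.5 kb for all protein-coding genes. The open genes included 68 Vmn1r genes, with a median of 0.924 kb, and 56 with Gm or LOC symbols. Only 13 were outside these and the other named families, among them Nfia (541 kb), Slco3a1 (279 kb) and Fbn2 (202 kb). The KOD genes ran from Olfr1425 (0.936 kb) to Pard3b (1004 kb). Gene density and length of the open members were not computed without the arrays.

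Gene arrays made up most of the open genes. Members held 68 of 231 Vmn1r genes, in 5 regions of chromosome 7, and 14 of 123 Vmn2r genes, also on chromosome 7. All 82 were mainly open in both heart and forebrain. They were 26.8% of the 306 vomeronasal receptor genes that were LAD in mES cells, and 145 of the 306 were LAD over at least 50% of the body in both tissues. The olfactory receptor genes, a larger family of chemosensory receptors, gave 3 members (Olfr410, Olfr411 and Olfr1425) out of 935 that were LAD in mES cells, with 843 LAD in both tissues. Taste receptor genes gave 0 of 29, and all 29 were LAD in both tissues. Of the chemosensory families, then, members came almost entirely from the vomeronasal receptors, and within those from part of the family.

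Names of the next families were chosen after their values were seen. Pramel genes had 13 of 45 in members, of which 11 were on chromosome 5 and 12 were open in both tissues, while Pramel19 on chromosome 4 was KOD in both. Scgb genes, which encode secretoglobins, small secreted proteins that include the androgen-binding proteins of saliva and tears, had 6 of 40 in members, all open in both tissues and on chromosome 7, such as Scgb1b10 and Scgb2b10. Predicted genes with Gm or LOC symbols made up 57 of the 195, 56 of them open in both, with 25 on chromosome 7, 18 on chromosome 14 and 9 on chromosome 5. Obox2, an oocyte homeobox gene, was open over 88.1% of its body in heart and 100% in forebrain, and 19 of the 47 Obox pseudogenes were members nearby on chromosome 7.

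These arrays consist of near-identical copies, and that was measured as the share of 31-base words of a promoter that occur in another promoter over 1000 bases away. Of the 208 promoters in members open in both tissues, 155 (74.5%) shared at least 50% of their words. The same was found for 0 of 53 promoters in members KOD in both, for 2.19% of promoters LAD in all 3 sources and for 3.39% of all promoters. It was also found for 74 of 285 promoters (26.0%) in bins LAD in mES cells and forebrain but not heart, and for 4 of 140 (2.86%) in bins LAD in mES cells and heart but not forebrain. The value also divided the families. Vmn1r windows may precede coding sequence rather than a start of transcription, as said above. Of the 67 Vmn1r promoters in members, 66 shared most of their words, against 13 of 139 Vmn1r promoters elsewhere. For Vmn2r these counts were 8 of 10 and 28 of 107, for Pramel 8 of 9 and 8 of 27, and for Scgb 6 of 6 and 8 of 26. A read with the same sequence in several copies cannot be placed on 1 of them. How many reads were of that kind is not known, since only promoter windows were compared. The sources used here do not give how such reads were treated for the lists, so the part of sequence sharing in these states was not tested. Without the 29 regions that touch Vmn1r, Vmn2r, Pramel or Scgb genes, which hold 651 bins (19.9%), 28.2% of the members were open in both tissues, 62.7% were KOD in both, and 69 member genes were counted in place of 195. Regions with other repeated genes, such as predicted genes of chromosome 14 and Obox pseudogenes, were kept. These values are therefore not those of members without repeated copies.

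**Figure D4:**
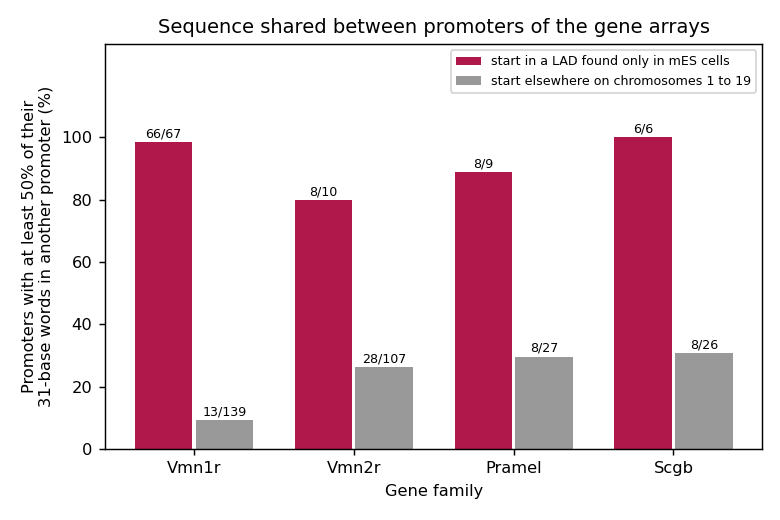
Percentage of promoters that share at least 50% of their 31-base words with another promoter over 1000 bases away, for 4 gene families, with the start in a member (red) or elsewhere (grey) and the counts above the bars. In each family the share was higher in members, 66 of 67 against 13 of 139 for Vmn1r.

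Of the single genes in members, those of developmental regulators are described first. Of 70 matched developmental transcription factors, 10 were LAD in mES cells and 2 were members, Nfia and Sox6. That is 2.86% of the list against 0.944% of all genes. Of the 10 it is 20.0%, against 5.78% of all genes LAD in mES cells, and 2 genes are too few for a result about the list. Nfia, a nuclear factor I protein needed for glia and midline structures of the brain, was LAD over 81.5% and open over 14.8% of its body in mES cells. It was open over 83.4% in heart and 81.2% in forebrain, and still LAD over 7.40% in heart and 0% in forebrain. The stretch that was open in mES cells, chr4:97730001-97810000, lay inside the gene, and the main member stretch, chr4:97820001-98150000, ran from beyond it past the end of the gene. The stretch open in mES cells lay near the left end of a longer open domain in each tissue. That domain was chr4:97720001-98140000 in heart and chr4:97690001-98130000 in forebrain. To its left, heart was LAD at chr4:97660001-97700000 and forebrain was in no list at chr4:97640001-97690000.

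Sox6, an HMG-box factor of muscle, cartilage and neuron development, was LAD over 71.8% and in no list over the rest in mES cells. It was open over 70.3% and KOD over 29.7% in heart, and KOD over 100% in forebrain. Next to it, Insc, which orients the spindle in asymmetric division, and Cyp2r1, the vitamin D 25-hydroxylase, were KOD in both tissues, over 100% of the body in each case. The stretch between Insc and Sox6 was KOD in both tissues apart from 1 bin that was LAD in heart. Of other transcription factor genes in the list, Sox5 had 30.4% of its body in members, Nr3c1 17.9% and Rarb 3.07%.

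**Figure D5:**
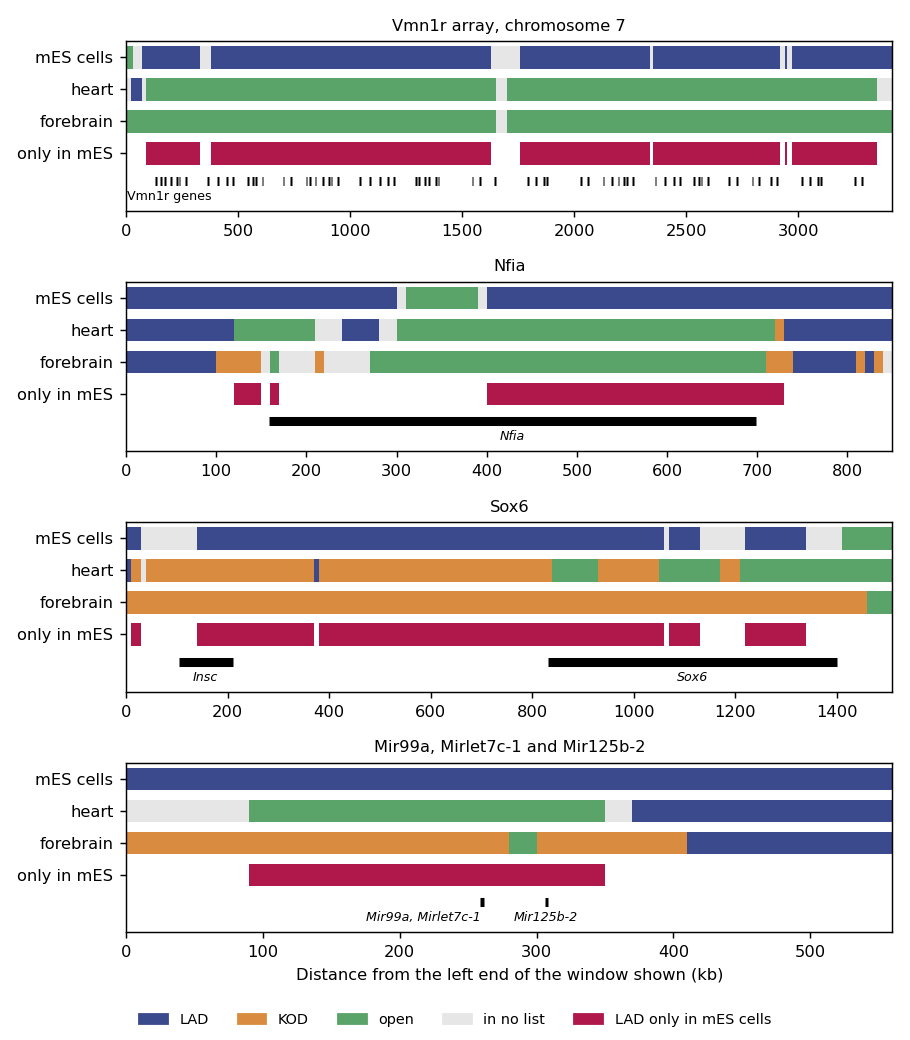
State of each 10 kb bin in mES cells, heart and forebrain along 4 loci, with the members in red and genes in black, by distance from the left end of the window. Genes of the top panel are drawn at least 8 kb wide so that they can be seen. Heart and forebrain share the open state over the Vmn1r array and most of Nfia, and differ over Sox6 and the miRNA genes.

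From 75 neuronal genes (synapse, adhesion and axon guidance), 48 had the LAD state in mES cells. Of the 48, 2.08% were members, against 5.78% of all genes LAD in mES cells. The 1 member is 1.33% of the list, against 0.944% of all genes. That gene was Epha7, an ephrin receptor of axon guidance, which was LAD over 63.1% in mES cells, open over 88.7% in heart and open over 95.1% in forebrain. Of the same list 8 genes lay in members in part, among them Auts2 with 500 kb (45.2% of the body, mainly KOD in both), Opcml with 385 kb (34.0%, KOD), Celf2 with 180 kb (21.0%, open), Erbb4 with 150 kb (13.9%, open) and Nrp1 with 71.4 kb (48.6%, open in heart and KOD in forebrain). Of the 48, 29 were LAD over at least 50% of the body in both tissues too.

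Among 61 genes of the extracellular matrix and its receptors, 29 were LAD in mES cells and 2 were members. That is 3.28% of the list, against 0.944% of all genes. Of the 29 it is 6.90%, near the 5.78% of all genes LAD in mES cells, so the count is not a result about the list. Thbs1, the matricellular protein thrombospondin 1, was LAD over 100% of its 15.3 kb in mES cells and open over 100% in heart and in forebrain. The member that holds it, chr2:118110001-118130000, was only the right end of a LAD of mES cells. Beyond it, mES cells had no list at chr2:118130001-118160000 and then open bins. Fbn2, the microfibril protein fibrillin 2, was LAD over 64.7% and open over 15.5% in mES cells, open over 100% in heart and open over 99.7% in forebrain. Of the 111 genes with a smaller part, Col1a2, a chain of type I collagen, had its start in a member open in both tissues, with 13 CG dinucleotides in its promoter. Thbs1 and Fbn2 therefore had the same state in heart and in forebrain.

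No gene of the lists for cardiac contraction and conduction (49 matched), forebrain transcription factors (37), vessel wall (36), signalling (96), blood (29), liver and gut (35) or skeletal muscle (22) had 50% of its body in members. Of the 9 cardiac genes that were LAD in mES cells, 5 were LAD in forebrain and not in heart, and of the 26 signalling genes 13 were, which keeps them out of the members. Over all protein-coding genes that were LAD in mES cells, the same was true of 497 of 3376, and 195 (5.78%) were members, so a count of 0 in lists this short is not a result about the list. The lists for pluripotency, germline, housekeeping and H3K9 methylation with the nuclear lamina had no gene that was LAD in mES cells. Signalling genes with a smaller part in members were Ptn, Igf1, Gli3 and Rarb, with 36.8%, 38.1% and 22.5% of the body for the first 3.

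The KOD genes with the most bases in members were long, and ranking by bases favours long genes. Pard3b had 691 kb in members, the most of any gene, and was LAD over 68.9% and KOD over 22.1% in mES cells and KOD over 100% in both tissues. Hpse2, a heparanase-like gene, had 330 kb, and was LAD over 54.8% in mES cells and KOD over 99.4% in heart and 96.1% in forebrain. Setbp1 had 320 kb, with LAD over 88.9% in mES cells, KOD over 72.1% and open over 27.8% in heart, and KOD over 100% in forebrain. Dnah9 (309 kb) was KOD over 100% in heart and 91.5% in forebrain, and Shisa6 (258 kb) over 100% and 87.4%. Slc14a2, a urea transporter gene, had 257 kb, with KOD over 74.7% in heart and 100% in forebrain, and Syt16, of the synaptotagmin family, had 140 kb, with KOD over 85.1% and 51.8%. In each of these genes KOD covered more of the body in heart and in forebrain than any other state.

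Shorter KOD genes were found on their own, such as Cyp2r1 and Dusp10, and in 2 small clusters. Adam7, Adamdec1 and Adam28, metalloprotease genes side by side on chromosome 14, lay wholly in the members, in a region that was a whole LAD of mES cells, chr14:68360001-68680000. On chromosome 19 the membrane protein genes Ms4a8a, Ms4a13 and Ms4a19 were members over 100%, 73.2% and 77.0%, with the long noncoding RNA gene AW112010 beside them. Among genes with at least 50% of the body in members and open in both tissues, those with the most member bases besides Nfia and Fbn2 were Slco3a1, an organic anion transporter gene (140 kb in members), Sncaip, which encodes synphilin-1 (132 kb), and Mpdz, a multi-PDZ scaffold gene (122 kb). They were open over 91.2%, 100% and 100% in heart and over 85.9%, 100% and 73.9% in forebrain. Esrrg, an orphan nuclear receptor gene, was the 1 member gene mainly KOD in heart and open in forebrain, with KOD over 85.2% in heart and open over 52.8% in forebrain. It also held the longest stretch of that combination, chr1:187840001-187950000.

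Promoters outside both the named arrays and the predicted genes had a higher median CG count than these, but a lower one than all promoters. Of 272 promoters with the start in a member, 46 had symbols other than Vmn1r, Vmn2r, Pramel, Scgb and those of predicted genes, and these include Olfr410 and repeated genes such as 1700049E17Rik1, whose words were 100% shared. Their median CG count was 5, with a range of 0 to 41, and 6 of the 46 shared most of their words. Vmn1r promoters had 1 to 4 CG dinucleotides and a median of 2.00, but their listed start may not be a start of transcription. At least 10 CG dinucleotides were found in 8.17% of promoters open in both tissues, 9.43% of those KOD in both, 8.99% of those LAD in all 3 sources, 63.2% of those open in all 3 sources and 44.0% of all promoters. By these shares, CG-rich promoters were about as rare in members with 1 state in both tissues as in bins LAD in all 3 sources. Of the 11 promoters in members open in 1 tissue and KOD in the other, 3 (27.3%) had at least 10. Since 155 of the 208 promoters open in both shared most of their words, the 8.17% counts many repeated copies. The share among the remaining promoters was not computed. The richest promoters in members were those of Serpine2, a protease inhibitor gene (41), Nbea, a neurobeachin gene (36), Mmd (32) and Pdzrn3 (32), which all started in a bin open in both tissues.

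Genes without a protein product were members in several clusters, and those named here were chosen after their values were seen. Of 1286 snoRNA genes, 80 (6.22%) were members, and 71 of them lay at chr7:59347173-59904848, in the imprinted Prader-Willi region, where 10 of 17 Snord116 genes and Ipw were members, with both tissues open there. In mES cells this cluster was a patchwork, with LAD at chr7:59560001-59690000 and KOD at chr7:59690001-59800000. These snoRNA genes are repeated copies too. Pseudogenes were members in 198 of 8884 cases (2.23%) and long noncoding RNA genes in 111 of 12408 (0.895%).

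Some miRNA genes lay in members with different states in the tissues. Mir99a, Mirlet7c-1 and Mir125b-2, a conserved cluster, lay in the region chr16:77430001-77690000, which was open throughout in heart. In forebrain it was KOD at both ends and open over 20 kb between, and the miRNA genes themselves lay in KOD bins, within a stretch that was LAD in mES cells on both sides. The longest stretch of members open in heart and KOD in forebrain, chr16:77430001-77620000, was part of it and held no protein-coding gene. The host gene of these miRNAs, Mir99ahg, was a member over 56.1% of its body. Mir1251 on chromosome 10 and Mir1903, just after the start of Nrp1 on chromosome 8, had the same pair of states. Mir181a-1 and Mir181b-1, at chr1:137966455-137966541 and chr1:137966639-137966718, were open in both tissues, and Mir6343 on chromosome 1 was KOD in both. The printed miR-99a, let-7c and miR-125b thus come from 1 region and carry 3 different seeds.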

How the data were processed

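The authors deposited 9 lists of domains (chromosome, start and end), 3 per source, in whole 10 kb bins of mm10 with no score, each pooled over the replicates of a source. The tools in the submitters' processing notes are Bowtie2 2.5.0, cutadapt 4.2 with Trim Galore, deepTools and Picard. The sources used here do not give how domains were called or how reads that map to several places were treated. The replicates, the IgG libraries and the signal tracks were therefore not analysed here.

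Bins were painted and joined with pandas 2.3.3, numpy 2.4.6 and scipy 1.17.1 in Python 3.11.15, checked on a simulated map, and drawn with matplotlib 3.10.9. Errors are delete-one-chromosome jackknife standard errors over 19 chromosomes, which measure the spread along 1 pooled map and not between animals or cultures. No significance test was made. Genes, promoters and miRNAs are from RefSeq on GRCm38.p6, and 161 of the 195 member genes had a promoter in the table. A gene is a member with at least 50% of its body in member bins. Of 648 symbols in 14 lists, 625 matched directly, and 20 families were defined by name patterns.

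Named regions are the 12 longest, the longest stretch of each combination of tissue states and the longest LAD of at least 200 kb with at least 80% of its length in members. Named genes are members that are in a list, in the 12 longest regions or among the 15 with the most bases in members, and others are said to have been chosen after their values were seen. The single genes with smaller parts, the promoters and the clusters of short KOD genes were chosen in that way too. Members, lists and alternatives were chosen with earlier results of these data known. A result for 1 gene is not reported here.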

Additional observations from a re-analysis of the deposited data

How the results depend on the processing

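No paired analysis was possible because the deposited lists pool the replicates of each source and no result comes from a test. Leaving out a replicate could not be done for the same reason. The count of 3272 bins in 495 regions depended on how unlisted bins were treated. It rose to 7256 bins in 1100 regions, with 456 member genes, when bins in no list of a tissue counted as not LAD. It fell to 1836 bins in 183 regions when 20 kb was trimmed from each end of every domain. Leaving out domains under 100 kb gave 171 regions, and keeping regions of at least 50 kb gave 183. The share open in both tissues was 45.4% after trimming, 47.3% without the short domains and 40.6% with regions as units. Without the short domains the shares open in heart and in forebrain were 50.8% and 48.5%. Leaving out each chromosome gave 33.3% to 51.8% open in heart, 31.4% to 48.9% open in forebrain and 28.2% to 46.7% open in both, with the lowest value of each without chromosome 7. The share within 50 kb of a LAD edge was 28.9% without the short domains, 34.7% with LADs joined over gaps of up to 20 kb, and 36.5% to 43.6% when each chromosome was left out. Other settings were chosen after seeing the data. Without chromosome 7 there were 77 member genes and 4.00 genes per Mb in place of 195 and 6.54. Without the regions that touch Vmn1r, Vmn2r, Pramel or Scgb genes, 69 member genes were left, 34.3% of members were open in heart, 31.2% in forebrain and 28.2% in both. Regions with other repeated genes were kept in that setting. The cause of these shifts was not tested.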
